A study of Rattus norvegicus with 9 samples.

Results

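The semaphorin, plexin, neuropilin, Slit, Robo, ephrin, Eph, netrin, Dcc and Unc5 genes encode the classical guidance cues and their receptors. They were taken by gene symbol from tables of gene expression in rat oligodendrocyte precursor cells (OPCs), the glia that mature into myelin-forming oligodendrocytes. The symbols matched 68 of 32623 genes listed, and 64 of the 68 had enough reads to be tested, among 15321 tested genes in all. They comprised 20 semaphorins, 9 plexins, 2 neuropilins, 3 Slit and 4 Robo genes, 8 ephrins, 13 Eph receptors, 4 netrins, and Dcc with its 4 Unc5 relatives.

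Messenger RNA of wild-type (WT) rat brain OPCs in primary culture was sequenced in 9 libraries on day 5 in differentiation medium. There were 3 basal libraries without drug, 3 with 1 µM and 3 with 10 µM bavisant, a histamine H3 receptor antagonist, and 1 protocol text writes the lower dose as 1 mM while the treatment labels write 1 µM. Each group had a library numbered P11, P13 and P14. Nothing in the sources used here says what the number marks or that the libraries came from separate animals or cultures. The p-values therefore measure the spread between these libraries, which may be technical. Where the P number is a term of the fit, they measure only the spread left after differences between P numbers are taken out.

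Guidance cues were first described in growing axons, where they attract or repel the growth cone. Secreted class 3 semaphorins bind neuropilins that signal through plexin A receptors, while most membrane-bound semaphorins bind plexins directly. Slits repel through Robo receptors, netrin attracts through Dcc and repels through Unc5, and ephrins and Eph receptors signal in both directions between touching cells. Oligodendrocyte lineage cells use the same molecules: Sema3a and Sema3f steer migrating OPCs, netrin and Dcc act in OPC migration and in the branching of oligodendrocyte processes, and Sema4d and Sema6a are made by oligodendrocytes themselves.

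The 9 libraries held 23.9 to 43.1 M estimated reads (M, 1e+06). Depth went with treatment: 23.9 to 33.5 M in basal libraries, 34.8 to 43.1 M at 1 µM and 38.0 to 39.3 M at 10 µM. Every basal library was thus shallower than every treated one. The common dispersion of the edgeR fit was 0.0675 with the dose groups alone and 0.00696 with the P number as an additional term, called the block here. Without the block edgeR called no gene at an adjusted p under 0.05 in any dose comparison, although 808, 81 and 717 genes had an unadjusted p under 0.05 at 10 µM against basal, 1 µM against basal and 10 µM against 1 µM. DESeq2 without the block called 64, 5 and 66 genes in these comparisons, none of them a guidance gene. The edgeR fit without the block had been set as the main fit and the block as its alternative, so the calls below come from the alternative. Unless a sentence says otherwise, every log2 fold change, SE, adjusted p and call below comes from the blocked edgeR fit. Both precursor and mature markers were present: 5 genes listed as OPC markers summed to between 1600 and 2013 TPM (a level scaled by gene length and by library) in the libraries and 7 oligodendrocyte markers to between 33082 and 50849 TPM. Mean basal levels of the 5 were 181 TPM for Pdgfra, 26.0 for Cspg4, 581 for Gpr17, 543 for Sox10 and 419 for Olig2. In bulk samples, fewer cells of a type and less RNA per cell cannot be told apart.

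The guidance genes covered a wide range of levels. Sema6a, a transmembrane semaphorin of myelinating cells, led with a mean of 297 TPM over the 9 libraries and a range of 220.1 to 388. Sema4d followed at 222 TPM, then Plxnb3 at 217 TPM and Sema6d at 186 TPM, and these 4 genes lay above 95% of the genes with reads. Another 30 genes averaged 10 to 100 TPM, 25 averaged 1 to 10 TPM and 9 were under 1 TPM. Of the secreted cues, Ntn1 averaged 53.7 TPM and Sema3d and Sema3a were the highest of class 3, whereas Slit2, the highest Slit, had 1.81 to 4.72 TPM. Of the receptors, Ephb1 was the highest Eph gene with 84.4 TPM, Unc5b and Unc5c exceeded Dcc, and Robo1 exceeded Robo2.

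**Figure D1:**
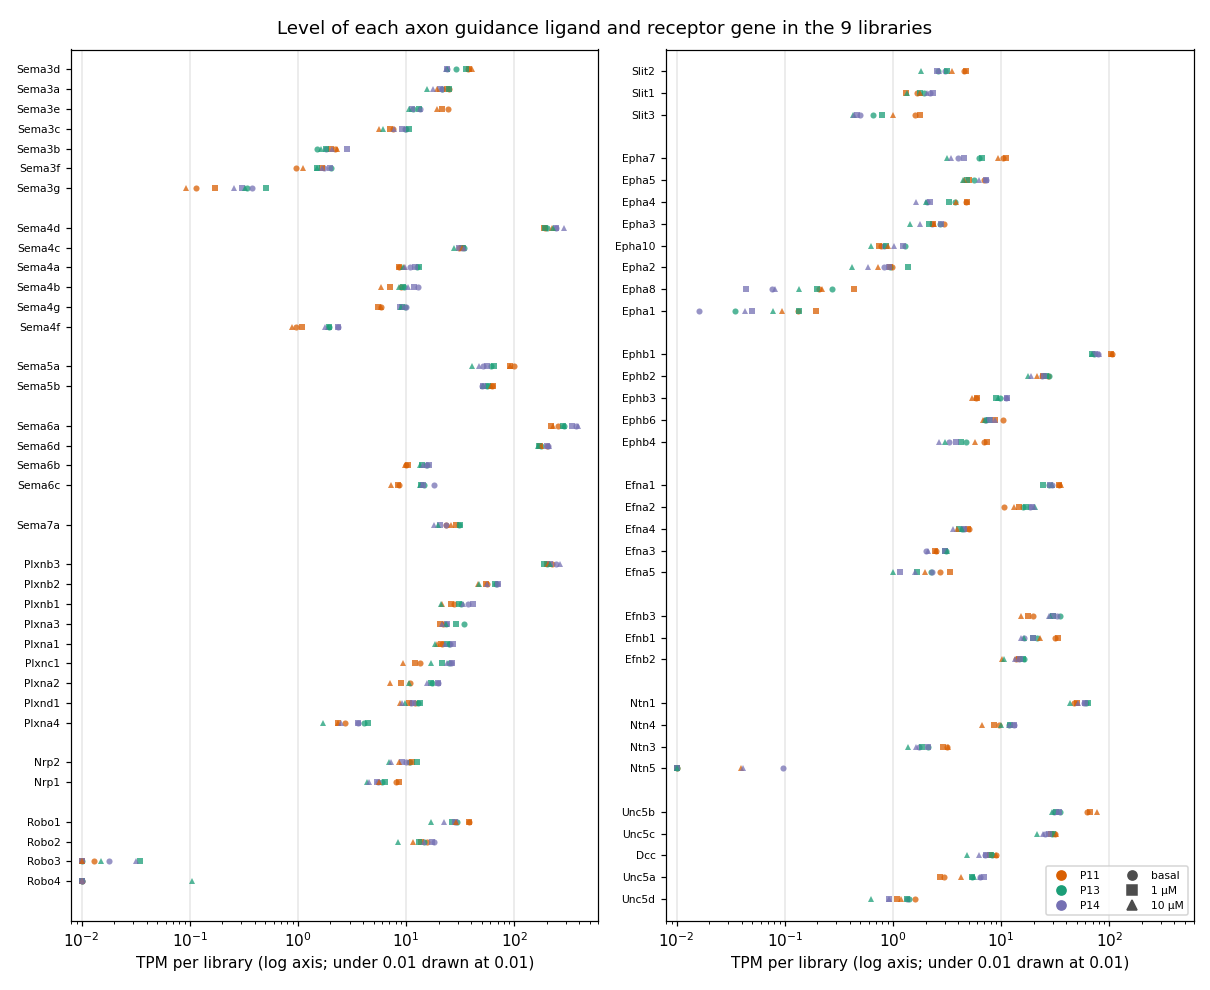
Level of each of the 68 genes in TPM on a log axis, 1 point per library, grouped by family and ordered by mean level within it. Colour gives the P number and shape the dose. Sema6a, Sema6d, Sema4d and Plxnb3 stand furthest right, and Robo3, Robo4 and Ntn5 lie at the left edge.

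Neighbours in this order were often not separable, for the ranges of Sema4d (189 to 288 TPM) and Plxnb3 (187 to 266 TPM) overlapped, as did those of Plxnb3 and Sema6d (167 to 211 TPM). The 4 untested genes were barely detected at this depth. Robo4, a receptor of blood vessels, had 0 reads in 8 of 9 libraries and 7 reads in the other. Robo3 reached at most 4 reads and Ntn5 at most 2 in any library, and 0 reads set an upper limit of 3 by counting error alone. Epha1 had 1 to 15 reads per library.

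At 10 µM bavisant against basal, the guidance genes were lower more often than higher. The blocked edgeR fit called 9 of the 64 tested genes (14.1%), against 3.96% of all tested genes. Of these, 8 (12.5%) were lower, against 2.64% of all genes: Sema3c, Plxna2, Plxnb2, Plxnd1, Nrp2, Robo1, Robo2 and Ephb2, between 1.22-fold and 1.40-fold lower. Sema4d alone was called higher (1.56%), close to the 1.32% of all genes called higher. Of the 8 genes that fell, 7 encode receptors and Sema3c encodes a secreted cue. Receptors were also a large part of the 64 tested genes: 9 plexins, 2 neuropilins, 2 Robo, 7 Eph A, 5 Eph B and 5 Dcc and Unc5 genes. The median log2 fold change was -0.19 over the 64 genes and -0.011 over all genes, and 48 of the 64 had a negative estimate, against 8090 of all 15321 genes. Without the block 0 of the 64 were called (0% of all genes), the adjusted p of the same 9 genes ranged from 0.793 to 1.00 and 9 of the 64 had an unadjusted p under 0.05 (808 of all 15321 genes), against 29 with the block (3436 of all genes). All 9 stayed called with library totals, where Sema4d was still the only one called higher and the set's median was -0.24. With limma on log2(TPM + 1) and the block 7 were called, 6 of them among the 9, and on log2(TPM + 0.1) 6 were, 5 of them among the 9. Sema3c, Plxnd1 and Nrp2 lost the call under both, and Robo2 on log2(TPM + 0.1).

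The number of calls depended on single libraries. With the blocked fit repeated without a single library, the count of 9 became 0 without the P14 library at 10 µM, 0 without the basal P11 or the basal P13 library and 1 without the basal P14 library. It was 3 without the P13 library at 10 µM, 6 without the P11 library at either dose, 5 without the P14 library and 10 without the P13 library at 1 µM. Robo2 was called in 6 of these 9 fits, Plxnb2 and Robo1 in 5, Sema4d and Plxna2 in 4, Ephb2 in 3, and Sema3c, Plxnd1 and Nrp2 in 1 each, and the sign of each was the same in all 9. Without all 3 P11 libraries none was called.

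**Figure D2:**
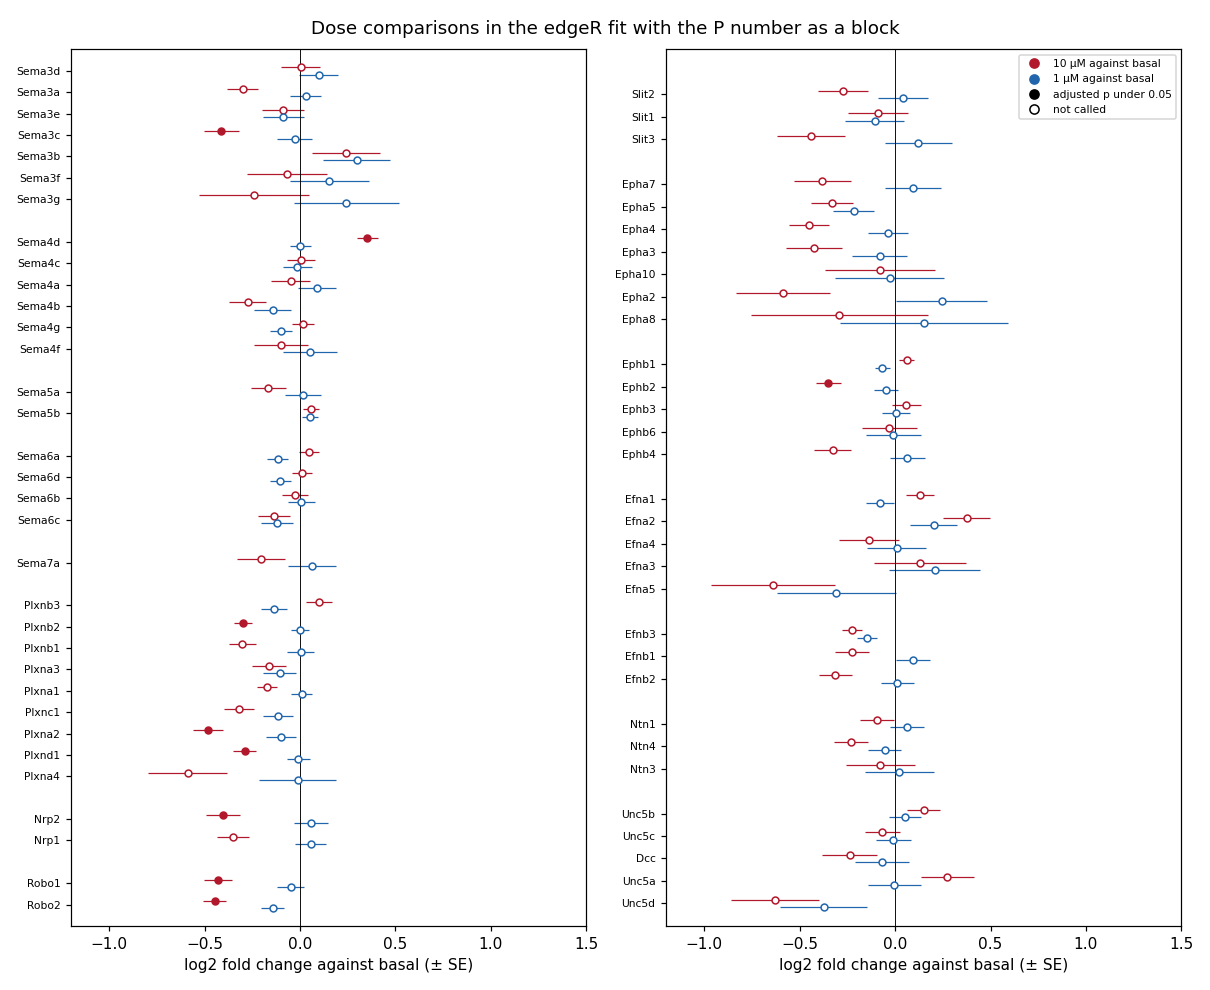
Log2 fold change against basal of the 64 tested genes in the blocked edgeR fit, with bars of 1 SE (n = 3 libraries per group), 10 µM in red above 1 µM in blue. Filled points have an adjusted p under 0.05: 9 at 10 µM, of which only Sema4d lies to the right of 0, and none at 1 µM.

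Sema4d (ENSRNOG00000013679), a transmembrane semaphorin whose receptors are B-type plexins, was the abundant exception. It had 223, 229.9 and 288 TPM in the P11, P13 and P14 libraries at 10 µM, and 191, 201 and 241 TPM in the basal libraries in that order. Each 10 µM library exceeded the basal library of its own number, but the groups overlapped. The log2 fold change was 0.35 ± 0.06 (SE, n = 3 each) with an adjusted p of 0.0201 by edgeR, and within the P numbers it was 0.37, 0.34 and 0.34.

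The other abundant semaphorins gave no call. Sema6a had 229.9, 290.2 and 388 TPM at 10 µM and 253, 290.5 and 374 TPM in basal libraries, and Sema6d had 177, 167 and 211 TPM against 199, 176 and 205 TPM. Their log2 fold changes were 0.05 ± 0.05 and 0.01 ± 0.05 (SE, n = 3 each), with edgeR adjusted p of 0.636 and 0.940. The class 5 genes Sema5a and Sema5b, transmembrane proteins with thrombospondin repeats, had -0.17 ± 0.09 and 0.06 ± 0.04. Of the 6 class 4 genes 1 rose and 0 fell, and 0 of 4 class 6 and 0 of 2 class 5 genes were called. Over all genes 1.32% were called higher and 2.64% lower. Sema7a, a membrane-anchored ligand of Plxnc1 and integrins, had 25.8, 19.9 and 18.1 TPM at 10 µM against 23.1, 30.7 and 23.4 TPM in basal libraries, with no call (-0.21 ± 0.13, edgeR adjusted p 0.365).

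Of the 7 secreted class 3 semaphorins, 1 fell, against 2.64% of all genes called lower. Sema3c (ENSRNOG00000006526), a cue read through neuropilins and plexins, had 5.65, 6.14 and 7.66 TPM at 10 µM and 7.63, 9.78 and 9.93 TPM in basal libraries. The 10 µM P14 value lay just above the lowest basal value, and the log2 fold change was -0.41 ± 0.09 (SE, n = 3 each, edgeR adjusted p 0.0493). Sema3a, which repels OPCs and slows their maturation in rodent cultures, had 19.4, 15.6 and 17.8 TPM at 10 µM and 24.8, 21.4 and 21.5 TPM in basal libraries. These groups did not overlap, yet the fit gave -0.30 ± 0.08 with an adjusted p of 0.0773, which is no call. Sema3f, described as an attractant of OPCs, stood at 0.964 to 2.04 TPM over all 9 libraries with -0.07 ± 0.21, and Sema3d and Sema3e, the other class 3 genes above 10 TPM, had 0.00 ± 0.10 and -0.09 ± 0.11.

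Of 11 semaphorin receptors, 9 plexins and 2 neuropilins, 4 fell at 10 µM, against 2.64% of all genes called lower, and 7 did not pass the test. The estimate was negative for 10 of the 11. Plxna2 (ENSRNOG00000007324), a receptor of Sema6a and a partner of neuropilins, had 7.14, 10.7 and 15.6 TPM at 10 µM and 10.9, 17.2 and 19.5 TPM in basal libraries. The groups overlapped, with P11 lowest in both, and within the P numbers the log2 differences were -0.58, -0.59 and -0.29. The blocked fit gave -0.48 ± 0.08 (SE, n = 3 each, edgeR adjusted p 0.0225), the largest called fall of the set. Plxnb2 (ENSRNOG00000007133), a receptor of class 4 semaphorins, had 46.2, 47.1 and 55.9 TPM at 10 µM and 56.0, 67.2 and 69.4 TPM in basal libraries. All 10 µM values lay below all basal values, by a small gap, and the log2 fold change was -0.30 ± 0.05 (edgeR adjusted p 0.0208). Plxnd1 (ENSRNOG00000025209), a receptor of Sema3e, had 8.81, 9.71 and 9.22 TPM at 10 µM and 12.1, 12.8 and 11.2 TPM in basal libraries. Those groups were also apart, with -0.29 ± 0.06 (edgeR adjusted p 0.0400).

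Plxnb3, the plexin with the highest level and known as an oligodendrocyte lineage gene, was the exception among plexins. It had 204, 213 and 266 TPM at 10 µM and 225, 201 and 241 TPM in basal libraries, without a call (0.10 ± 0.07, edgeR adjusted p 0.417). Plxnb1, the high-affinity receptor of Sema4d, had 21.3, 20.8 and 33.6 TPM against 27.6, 32.1 and 37.7 TPM. Its estimate of -0.30 ± 0.07 was as large as that of Plxnb2 but missed the threshold (adjusted p 0.0552). Plxnc1, the receptor of Sema7a, also missed it with -0.32 ± 0.08 (adjusted p 0.0609), and Plxna1, Plxna3 and Plxna4, which transmit class 3 signals, had -0.17 ± 0.05, -0.16 ± 0.09 and -0.59 ± 0.21 without a call.

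Both neuropilins, the ligand-binding co-receptors for class 3 semaphorins, had negative estimates. Nrp2 (ENSRNOG00000031232), which binds Sema3f and Sema3c, had 8.55, 6.93 and 7.26 TPM at 10 µM and 10.6, 10.8 and 9.91 TPM in basal libraries. The groups did not overlap, and the log2 fold change was -0.40 ± 0.09 (SE, n = 3 each, edgeR adjusted p 0.0486). Nrp1 (ENSRNOG00000010744), which binds Sema3a, had 5.62, 4.36 and 4.57 TPM at 10 µM and 8.01, 6.03 and 5.49 TPM in basal libraries. It overlapped by 1 library and had -0.35 ± 0.08 with an adjusted p of 0.0555, short of a call.

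Robo1 and Robo2, the 2 Robo genes expressed here, both fell. Robo1 (ENSRNOG00000029614) had 29.2, 17.1 and 22.4 TPM at 10 µM and 37.8, 29.5 and 28.2 TPM in basal libraries, with overlap through the P11 library at 10 µM. Its log2 fold change was -0.43 ± 0.07 (SE, n = 3 each, edgeR adjusted p 0.0236), and the within-P differences were -0.34, -0.68 and -0.28. Robo2 (ENSRNOG00000029598) had 11.6, 8.35 and 14.7 TPM at 10 µM and 15.6, 14.7 and 18.1 TPM in basal libraries. The 10 µM P14 and the basal P13 values nearly met (14.67 and 14.75 TPM), and the log2 fold change was -0.45 ± 0.06 (edgeR adjusted p 0.0164, the lowest of the set). The Slit ligands were low and uncalled, with -0.27 ± 0.13 for Slit2, -0.44 ± 0.18 for Slit3 and -0.09 ± 0.16 for Slit1.

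**Figure D3:**
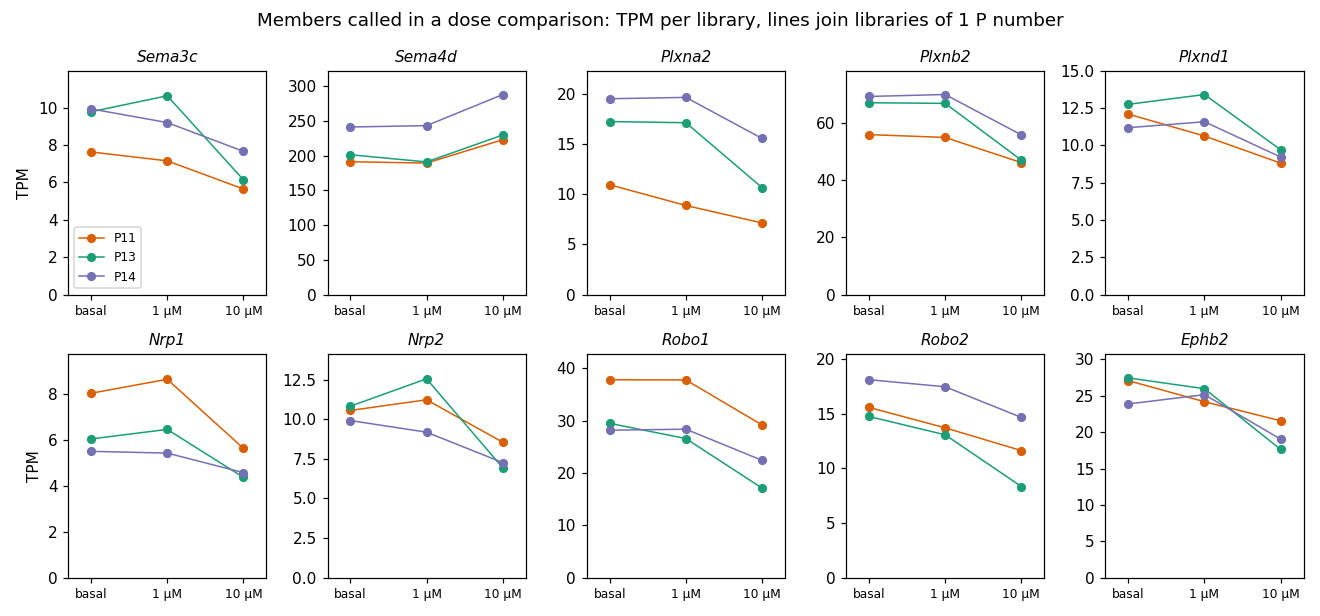
TPM per library of the 10 genes called in a dose comparison of the blocked fit, by dose from basal to 10 µM, with axes starting at 0 and lines joining the libraries of 1 P number. In each panel the 3 lines move the same way between basal and 10 µM, upward for Sema4d and downward for the others, while the P numbers start from different levels.

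Of the 12 tested Eph receptors, tyrosine kinases that bind ephrins on neighbouring cells, 1 was called, against 3.96% of all genes. Ephb2 (ENSRNOG00000012531) had 21.6, 17.6 and 19.0 TPM at 10 µM and 27.1, 27.4 and 23.9 TPM in basal libraries. The groups did not overlap, and the log2 fold change was -0.35 ± 0.07 (SE, n = 3 each, edgeR adjusted p 0.0307). Ephb2 and Plxnb1 were the 2 genes of the set whose estimated counts were not whole numbers in the 9 libraries, so their values are uncertain where reads are shared with overlapping or similar genes. Ephb1, by far the most abundant Eph receptor, had 107, 69.8 and 80.6 TPM at 10 µM and 106, 72.0 and 78.9 TPM in basal libraries. That is a log2 fold change of 0.06 ± 0.04 with no call (adjusted p 0.391).

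The 7 tested Eph A receptors all had negative estimates, with a median of -0.38, and none was called. Epha4, which binds ephrins of both classes, came nearest with 3.79, 2.03 and 1.63 TPM at 10 µM against 4.74, 3.74 and 2.05 TPM in basal libraries. Its log2 fold change was -0.45 ± 0.11 (SE, n = 3 each) with an edgeR adjusted p of 0.0555. Epha7 and Epha5, the Eph A genes of highest level, had -0.38 ± 0.15 and -0.33 ± 0.11.

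None of the 8 ephrins was called. The ephrin B genes encode transmembrane ligands, and all 3 had negative estimates: -0.23 ± 0.05 for Efnb3 (adjusted p 0.0568), -0.31 ± 0.09 for Efnb2 (adjusted p 0.0846) and -0.23 ± 0.09 for Efnb1. Efnb3 had 15.3, 28.2 and 27.4 TPM at 10 µM and 19.7, 35.1 and 32.7 TPM in basal libraries. The membrane-anchored ephrin A genes had estimates of both signs, with 0.13 ± 0.07 for Efna1 (35.9, 29.8 and 29.7 TPM at 10 µM, 34.5, 27.6 and 29.5 TPM in basal libraries) and 0.37 ± 0.12 for Efna2 (adjusted p 0.125). Efna3 had 0.13 ± 0.24, Efna4 had -0.14 ± 0.16 and Efna5, with 13 to 42 reads per library, had -0.64 ± 0.32.

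The netrin system gave no call in 8 tested genes. Ntn1, which guides OPCs during development, had 49.97, 43.1 and 51.8 TPM at 10 µM and 47.0, 61.1 and 58.2 TPM in basal libraries. Its estimate of -0.10 ± 0.09 (SE, n = 3 each, edgeR adjusted p 0.559) did not pass the test. Its receptor Dcc had 8.97, 4.86 and 6.28 TPM at 10 µM and 8.90, 8.24 and 7.10 TPM in basal libraries, with -0.24 ± 0.14. Unc5b, a repulsive netrin receptor, had 77.6, 29.3 and 33.5 TPM at 10 µM and 61.6, 35.2 and 30.8 TPM in basal libraries, with P11 high in both groups and no call (0.15 ± 0.09). Ntn4, a laminin-binding netrin, had -0.23 ± 0.09 and Unc5c -0.07 ± 0.09. The estimates of the 5 Dcc and Unc5 genes ran from -0.63 to 0.27.

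Beyond the 9 called genes, 8 had an adjusted p between 0.05 and 0.1 in the blocked fit at 10 µM, and all 8 estimates were negative: Plxnb1, Nrp1, Epha4, Efnb3, Plxnc1, Sema3a, Efnb2 and Ephb4. The share of all genes in this range and its split by sign were not computed. Calls over all genes also leaned lower, with 405 of 607. By level, the 4 genes of at least 100 TPM had a median log2 fold change of 0.07 and no negative estimate, the 30 genes of 10 to 100 TPM had a median of -0.17 with 23 negative, and the 25 genes of 1 to 10 TPM had a median of -0.27 with 20 negative. The 5 tested genes under 1 TPM had a median of -0.29 with 5 negative. All tested genes had medians of 0.08, 0.0029, -0.11 and -0.22 in these 4 bands, which is the same order. Negative estimates made up 22.7%, 49.2%, 67.4% and 69% of all tested genes in these bands. On log2(TPM + 1) the medians of the guidance genes were -0.25 at 10 to 100 TPM and -0.27 at 1 to 10 TPM. With library totals 1 of the 4 genes of at least 100 TPM had a negative estimate, and on log2(TPM + 1) 2 of them had.

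Read without a model, 12 of the 64 genes (18.8%) had all 3 TPM values at 10 µM below all 3 basal values, against 8.12% of all tested genes, on a scale where the median of all genes was -0.072 (log2). They were Efna4, Efna5, Efnb2, Epha2, Ephb2, Nrp2, Plxna4, Plxnb2, Plxnd1, Robo2, Sema3a and Unc5d. None lay wholly above, against 1.93% of all genes. Within the P numbers, 30 of the 64 were lower at 10 µM than basal in all 3 pairs, 9 were higher in all 3 and 25 were mixed, and over all genes 24.2% were lower and 20.5% higher in all 3. The median log2 difference of the 64 was -0.14 in P11, -0.30 in P13 and -0.10 in P14, so the P13 pair showed the greatest shift.

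At 1 µM against basal no guidance gene was called, with the block (0% of all genes) or without it (0% of all genes). In the blocked fit 2 of the 64 had an unadjusted p under 0.05, against 582 of all 15321 genes, and without the block none had. The estimates ran from -0.37 to 0.30 with a median of -0.0022, and 32 were positive and 32 negative. The 9 genes called at 10 µM lay between -0.14 and 0.06 at 1 µM, with Sema4d at 0.00 ± 0.06, Robo2 at -0.14 ± 0.06 and Plxnb2 at 0.00 ± 0.05 (SE, n = 3 each). Only Unc5d (1.56% of the 64) had all 1 µM values below all basal values, near the 1.25% of all genes, and none lay above, against 1.53%.

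The contrast of 10 µM against 1 µM shares its 10 µM libraries with the contrast against basal, so the values are given side by side and not as a second test. The blocked fit called 9 of 64 (14.1%), against 4.3% of all genes, 8 lower (12.5%, against 3%) and 1 higher (1.56%, against 1.31%). Without the block 0 were called (0% of all genes), and 9 of the 64 had an unadjusted p under 0.05, against 717 of all 15321 genes. Sema4d was higher by 0.35 ± 0.06 with an adjusted p of 0.0218, from 223, 229.9 and 288 TPM at 10 µM and 189, 191 and 243 TPM at 1 µM. Nrp1 was called here, with 5.62, 4.36 and 4.57 TPM at 10 µM and 8.62, 6.44 and 5.41 TPM at 1 µM (-0.41 ± 0.08, SE, n = 3 each, edgeR adjusted p 0.0354). Sema3c was not (-0.38 ± 0.09, adjusted p 0.0563). The other 7 were Nrp2 with -0.46 ± 0.09, Robo1 and Plxna2 with -0.38 each, Robo2, Ephb2 and Plxnb2 with -0.30 each, and Plxnd1 with -0.28. Efnb2, Epha2, Ephb2, Nrp2, Plxnd1 and Sema3a, 9.38% of the 64, lay wholly below at 10 µM, against 7.73% of all genes, and none lay above, against 1.59%. This count of 9 fell to 0 when the 10 µM P14 library or any single 1 µM library was left out, and to 1 without the 10 µM P13 library.

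The genes that fell were also read for what their promoters share. A window of 300 bases, 250 before to 50 after the annotated start, was taken from the RefSeq table of assembly GRCr8 for 53 of the 68 genes and 8 of the 9 called at 10 µM against basal. The GC box GGGCGG, a common promoter element bound by Sp-family factors, was sought on both strands along with the letters CCAAT of the NF-Y element, the TATA element (letters TATAAA), the cAMP response element or CRE (letters TGACGTCA), the AP-1 element (letters TGANTCA) and an E-box (letters CAGCTG). The 4 windows with a GC box are shown, 5′ to 3′ on the gene's strand, with GC boxes and E-boxes in capitals, where CCGCCC is the GC box on the other strand.
Plxna2, chr13:108691280-108691579, plus strand: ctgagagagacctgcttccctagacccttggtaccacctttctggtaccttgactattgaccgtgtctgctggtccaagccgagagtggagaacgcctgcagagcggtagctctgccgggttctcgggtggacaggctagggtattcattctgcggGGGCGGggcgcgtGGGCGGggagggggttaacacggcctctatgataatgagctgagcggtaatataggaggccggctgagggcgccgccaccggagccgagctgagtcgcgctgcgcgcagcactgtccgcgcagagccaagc
Plxnb2, chr7:122137899-122138198, minus strand: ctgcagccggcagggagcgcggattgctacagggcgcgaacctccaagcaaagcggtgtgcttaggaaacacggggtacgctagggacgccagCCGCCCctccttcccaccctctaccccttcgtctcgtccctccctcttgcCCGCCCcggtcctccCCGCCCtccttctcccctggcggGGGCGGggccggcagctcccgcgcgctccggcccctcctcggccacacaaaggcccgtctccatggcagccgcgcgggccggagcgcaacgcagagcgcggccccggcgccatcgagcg
Plxnd1, chr4:150715138-150715437, minus strand: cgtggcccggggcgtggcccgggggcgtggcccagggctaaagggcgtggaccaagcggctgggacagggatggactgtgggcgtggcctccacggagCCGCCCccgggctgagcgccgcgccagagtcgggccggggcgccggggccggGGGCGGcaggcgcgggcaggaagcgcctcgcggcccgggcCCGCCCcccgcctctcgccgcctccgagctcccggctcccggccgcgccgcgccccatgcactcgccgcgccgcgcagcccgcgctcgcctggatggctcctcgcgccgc
Robo2, chr11:26526363-26526662, minus strand: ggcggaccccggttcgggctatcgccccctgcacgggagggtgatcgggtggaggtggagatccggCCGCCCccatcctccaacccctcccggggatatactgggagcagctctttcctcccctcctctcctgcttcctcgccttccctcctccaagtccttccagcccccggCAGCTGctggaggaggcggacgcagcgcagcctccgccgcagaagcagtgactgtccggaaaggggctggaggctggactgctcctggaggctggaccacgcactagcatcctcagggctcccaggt

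The GC box was present in 4 of the 8 called genes with a window and in 54.7% of the 53 guidance genes, against 33.1% of 33469 promoters. Each guidance gene was counted by its first window only, while the 33469 promoters include every window of a gene. The shares here and below are therefore not in the same unit. Plxnb2 had 4 of them, Plxnd1 had 3, Plxna2 had 2 and Robo2 had 1. These 4 windows, picked for the motif, were rich in G and C, from 63.3% in Plxna2 to 83% in Plxnd1. The median over all promoters was 51.7%, and this base composition goes with the letters of the motif. The other called genes had 36.3% (Sema3c), 53% (Nrp2) and 69.3% (Ephb2). Robo1 had 45.7% and 57.3% in separate windows, of which the first was used for the motif counts. CAGCTG was found in Robo2 and Nrp2, and in 26.4% of the guidance genes against 15.1% of all promoters. CCAAT was found in Robo1 and Ephb2, and in 32.1% of the guidance genes against 37.5% of all. None of the 8 held TATAAA (14.2% of all promoters), TGACGTCA (1.83%) or TGANTCA (7.33%). A match describes these letters in this window and is not a binding site.

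The guidance genes, like all genes, were called more often by P number than by dose. P11 was set apart because earlier results of these same data had done so, and the p-values of this contrast do not allow for that choice. The P11 libraries share 1 number and differ in dose, so they may be 1 preparation measured 3 times, and the SE and p of this contrast then describe these libraries only. In the blocked fit, P11 against the mean of P13 and P14, taken over all 3 doses, gave 41 called genes of 64 (64.1%), against 50.6% of all genes. They were 21 higher (32.8%, against 25.2%) and 20 lower (31.2%, against 25.4%). Slit3, a repulsive Slit ligand, was highest in P11 with a log2 fold change of 1.49 ± 0.14, followed by Epha8 with 1.40 ± 0.37, Epha7 with 1.25 ± 0.12 and Unc5b with 1.14 ± 0.07. Ephb1 was higher by 0.57 ± 0.03, the smallest adjusted p of the set (5.6e-06 by edgeR). At the other end were Sema3g with -1.38 ± 0.27, Sema4f with -0.99 ± 0.13, Plxnc1 with -0.95 ± 0.07 and Plxna2 with -0.82 ± 0.07. Several of these extremes were of low level. Slit3 averaged 0.849 TPM, Epha8 0.186 TPM with 3 to 28 reads per library, and Sema3g 0.276 TPM with 6 to 39 reads. Sema6a was lower in P11 by 0.41 on the log2 scale (-0.41 ± 0.05), while Sema6d and Plxnb3 did not pass the test (0.01 ± 0.05 and 0.01 ± 0.06).

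**Figure D4:**
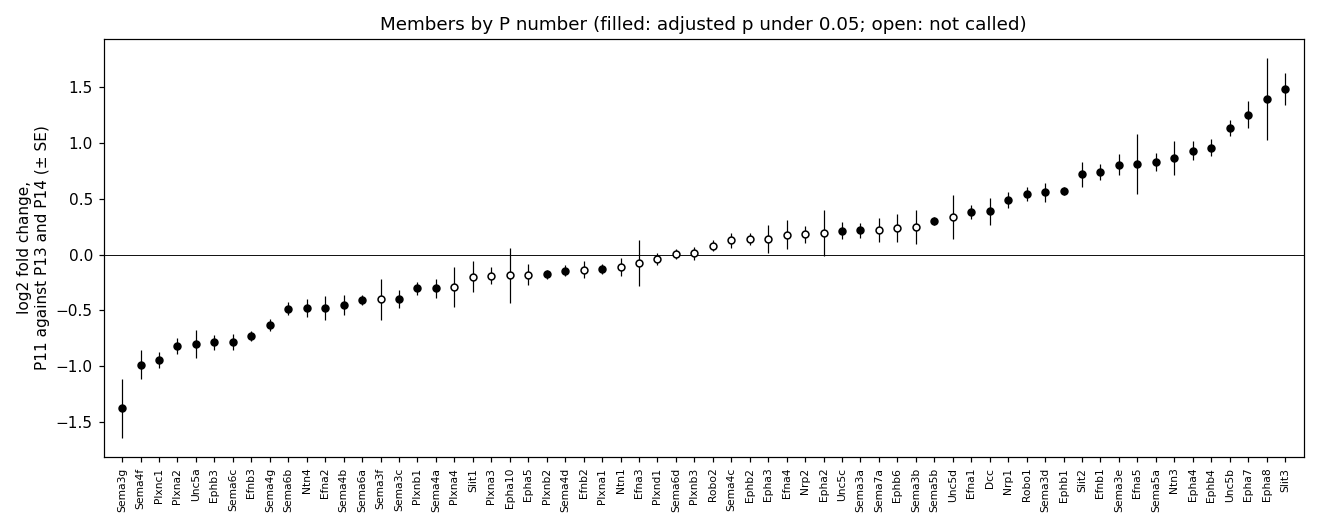
Log2 fold change of P11 against the mean of P13 and P14 for the 64 tested genes, in order of size, with bars of 1 SE from the blocked edgeR fit on 9 libraries. Filled points have an adjusted p under 0.05, 21 above 0 and 20 below it, with Slit3 at the right end and Sema3g at the left.

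Among other genes of the pathway, a few were lower or higher at 10 µM. Of 71 partner genes found and tested, from a list of 72 adhesion partners and intracellular effectors, the blocked fit called 7 (9.86%, against 3.96% of all genes) at 10 µM against basal, 2 higher and 5 lower, and without the block 0. The median log2 fold change was -0.10. Dpysl5, of the collapsin response mediator family, fell to 15.4, 38.7 and 39.9 TPM at 10 µM, against 23.6, 60.4 and 56.2 TPM in basal libraries (-0.51 ± 0.05, SE, n = 3 each, edgeR adjusted p 0.0101). The other genes that fell were Ngef, an exchange factor activated by Eph receptors (-0.66 ± 0.10), the adhesion molecule L1cam (-0.52 ± 0.09), the Slit-Robo GTPase-activating protein Srgap3 (-0.41 ± 0.09) and the exchange factor Vav3 (-0.37 ± 0.07). Lingo1, a brake on oligodendrocyte differentiation, rose (0.24 ± 0.05). Against 1 µM 3 were called (4.23%, against 4.3% of all genes), 1 higher and 2 lower (Dpysl5 and Ngef). No partner gene was called at 1 µM against basal, where 4 of 71 had an unadjusted p under 0.05, against 582 of all 15321 genes.

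Cell type markers differed at 10 µM against basal, where 1.32% of all genes were called higher and 2.64% lower. Their part in these results was not tested. At 1 µM against basal no marker was called. All 8 microglia estimates were positive at 1 µM (median 0.16) and negative at 10 µM (median -0.14). Of the 5 genes listed as OPC markers 4 had positive estimates at 10 µM and 1, Olig2, was called higher (0.29 ± 0.06, edgeR adjusted p 0.0378). Pdgfra and Cspg4 were not called (0.18 ± 0.05 and 0.22 ± 0.05, edgeR adjusted p 0.0926 and 0.0676). Nor were Sox10 (0.30 ± 0.07) and Gpr17 (-0.13 ± 0.19). The 7 oligodendrocyte markers summed to 45704 to 50849 TPM at 10 µM and 34274 to 38804 TPM in basal libraries, with 6 of 7 called higher in the blocked fit. The 7 astrocyte markers summed to 1078 to 1544 TPM at 10 µM and 1420 to 1857 TPM in basal libraries, with 2 called lower. The 8 microglia markers summed to 650 to 744 TPM and 682 to 964 TPM in those groups, with 2 lower. The 8 neuron markers summed to 200 to 337 TPM at 10 µM and 226 to 469 TPM in basal libraries, with 3 of 7 tested called lower, among them Gad1 and Gad2. The 7 mural and fibroblast markers summed to 123 to 220 TPM and 157 to 328 TPM, and the 6 endothelial markers to 2.25 to 18.3 TPM and 3.03 to 22.6 TPM, with none called. For P11, 25.2% of all genes were called higher and 25.4% lower. All 4 tested endothelial markers and 4 of 6 mural and fibroblast markers were called higher in P11. So were 6 of 7 oligodendrocyte markers. Of the 7 tested neuron markers 5 were called lower and 1 (Gad2) higher, 5 of 8 microglia markers were called lower, and the OPC and astrocyte markers had 2 calls in each direction each.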

How the data were processed

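Per the labels, RNA was extracted with RNeasy, and libraries from the Illumina Stranded mRNA Prep kit were read as pairs of 75 bases on an Illumina NextSeq instrument. The submitters' processing notes list the tools DRAGEN, FastQC, Picard and Trimmomatic and the build rn6. How genes were counted, with which strand setting and which annotation, is not given in the sources used here. Estimated counts (expected counts) per gene were deposited by the authors unscaled, with 92.4% to 93% whole numbers per library. TPM values, which are corrected for gene length and have equal library sums, were deposited as well.

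Estimated counts were rounded. Tests used edgeR 4.0.16 under R 4.3.3 (quasi-likelihood F test, TMM factors, filterByExpr with a count minimum of 10 and a total of 15, all 9 libraries, 1 coefficient per group), and p-values were adjusted by Benjamini-Hochberg over 15321 genes. Each SE was computed as the absolute log2 fold change divided by the root of the F statistic. The P number was added as a block because deviations from the group means correlated at 0.319 to 0.772 in all 9 same-number pairs of libraries. That pairing comes from the data and from the titles' numbers. The fit had 6 residual degrees of freedom without the block and 4 with it. Libraries of a group differed by more than counting noise (a chi-square of at least 23.9 per degree of freedom), so none was counted as a duplicate. Differences within a P number were taken on log2 CPM (prior count 2).

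Genes in the text were named by a rule: every gene called in a dose comparison, the 2 of highest level per family, a fixed core with known lineage roles, the 3 uncalled genes of smallest p per comparison, and called partner genes. Other genes are named because their values stood out. The guidance genes, partner list, marker lists, rule and the contrast of P11 with P13 and P14 were chosen with earlier results of these data known. Of the marker symbols, Lhfpl3, Pecam1 and Col1a2 were not matched, and of the partners 1 was not. Of the 2 partner genes called higher, 1 is not reported here. Other settings were DESeq2 1.42.0, its size factors, library totals, other count filters, limma 3.58.1 on log2(TPM + 1) and log2(TPM + 0.1), the block, and leaving out libraries. The blocked edgeR fit was also run on counts simulated from that same model, which cannot check the choice of the block or the fit without it. Promoter windows came from RefSeq tables of GRCr8, and no coordinates were taken from rn6.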

Additional observations from a re-analysis of the deposited data

How the results depend on the processing

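At 10 µM against basal, the counts of called guidance genes and of called partner genes were 0 without the replicate block and became 9 and 7 with it. For 10 µM against 1 µM they were likewise 0 and became 9 and 3. DESeq2, its size factors, library totals, both other count filters and limma on TPM also gave 0 guidance genes without the block. With the block, the 9 at 10 µM against basal became 15 with library totals, 16 with DESeq2 (both with all 9 among them), 14 with a mean of at least 100 reads and 0 with limma on log2(TPM + 1) and no TPM filter. The 9 for 10 µM against 1 µM became 17 with library totals, 15 with DESeq2, 3 with limma on log2(TPM + 1) or log2(TPM + 0.1) and 0 with limma and no TPM filter. Leaving out 1 library gave 0 to 10 against basal and 0 to 7 against 1 µM, and leaving out all P11 libraries gave 0 for both. The cause was not tested, though fits with fewer libraries have fewer residual degrees of freedom.

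Scaling moved the split over all genes in the blocked fit at 10 µM against basal. Lower calls were 66.7% of calls with TMM factors, 84.3% with library totals and 82.9% with limma on log2(TPM + 1), and for 10 µM against 1 µM they were 69.7%, 87.4% and 84.5% in the same order. The median log2 fold change of all genes shifted by less than 0.1 (to -0.058 with library totals and -0.072 with limma). The count of called guidance genes at 1 µM against basal stayed at 0 (DESeq2 with the block called 8 of all genes), and that for P11 stayed between 34 and 42. Of 123 pairs of a named gene and a dose comparison, 50 kept their sign under all 36 alternatives and 73 did not, and no gene reversed in a comparison in which it was called. With 3 libraries per group and 4 residual degrees of freedom, small shifts in genes of low level could not be resolved.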
